A study of Homo sapiens with 30 samples.

Results

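RNA polymerase II (Pol II) occupancy was compared between parental MDA-MB-231 cells, an established human triple-negative breast cancer line, and the SAP30-KO1 line, in which the gene of the SIN3 subunit SAP30 was knocked out. These were the 4 Pol II libraries of the series, 2 parental and 2 SAP30-KO1, chosen by the antibody target and the cell line in the labels, out of 30 samples of which 18 had a peak list. The knockout line was made with CRISPR/Cas9 and is, per the study's methods, a mixture of several single-cell clones, so it differs from the parental population in its clonal history as well as in SAP30. Both lines were cultured cells without treatment in the labels, fixed with formaldehyde, sonicated and immunoprecipitated with a Pol II antibody. Each library had its own list of peak summits, single bases that the peak caller reported as the tops of peaks. Summits within 1000 bp of each other over the 4 lists were joined into regions. This gave 21356 Pol II regions, of 51282 regions when the 18 lists of the series were joined in the same way.

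Pol II transcribes protein-coding genes and many noncoding RNA genes. It assembles at promoters, usually pauses a short way downstream of the transcription start site, and is released into the gene body by the kinase P-TEFb, so that ChIP-seq peaks gather at start sites with weaker signal along genes and past their ends. SIN3 complexes carry histone deacetylases to active promoters, and SAP30 is a subunit that links the SIN3 scaffold to its partners. Peak lists report where Pol II passed a detection threshold and not how much of it was there. Sequencing depth is unknown for all 4 libraries, and a score was therefore used only as a rank within its own list, where 0% is the best region and 100% the last. The knockout could not be checked here, since peak lists do not show whether a protein is made and the promoter of SAP30 itself held Pol II summits in all 4 libraries.

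Sequences (GRCh37, which is hg19) of the loci that the comparison turned on are shown first. They are 200 bases upstream of an annotated start site on the strand of the gene, or, in an intron, 150 bases around a summit. Capitals mark the motifs searched for on both strands. The TATA box was read as the letters TATAAA and the CCAAT box by its name. The GC box, which binds the factor SP1, was read as GGGCGG, and overlapping GC boxes run together. The binding site of the factor AP-1 was read as TGANTCA. The first pair of promoters had a Pol II region in both parental lists and in neither SAP30-KO1 list. They are those of GFPT2 (chr5:179780337-179780536, minus strand), which encodes the rate-limiting enzyme of the hexosamine pathway, and PDGFD (chr11:104035108-104035307, minus strand), which encodes a platelet-derived growth factor.
GFPT2: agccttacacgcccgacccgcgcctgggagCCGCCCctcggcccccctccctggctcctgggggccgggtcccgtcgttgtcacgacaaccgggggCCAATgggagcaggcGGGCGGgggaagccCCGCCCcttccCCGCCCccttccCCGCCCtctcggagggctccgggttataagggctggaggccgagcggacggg
PDGFD: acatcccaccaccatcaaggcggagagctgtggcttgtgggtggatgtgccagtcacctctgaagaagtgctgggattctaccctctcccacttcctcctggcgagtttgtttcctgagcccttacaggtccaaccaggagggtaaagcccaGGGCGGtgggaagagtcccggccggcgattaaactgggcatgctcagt
Both promoters lacked the TATAAA letters. The GFPT2 stretch held 5 GC boxes and 1 CCAAT, was 76.5% G and C and had 21 CpG dinucleotides, while the PDGFD stretch held 1 GC box, was 58.5% G and C and had 6 CpG dinucleotides.

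The next promoters held Pol II in all 4 lists at ranks that did not overlap between the lines. IPO13 (chr1:44412422-44412621, plus strand), which encodes a nuclear import and export receptor, and S1PR3 (chr9:91606183-91606382, plus strand), a sphingosine-1-phosphate receptor, stood at better ranks in SAP30-KO1. RDX (chr11:110167438-110167637, minus strand), which encodes radixin, a linker of actin to the membrane, and FLNC (chr7:128470260-128470459, plus strand), which encodes the actin cross-linker filamin C, stood at worse ranks.
IPO13: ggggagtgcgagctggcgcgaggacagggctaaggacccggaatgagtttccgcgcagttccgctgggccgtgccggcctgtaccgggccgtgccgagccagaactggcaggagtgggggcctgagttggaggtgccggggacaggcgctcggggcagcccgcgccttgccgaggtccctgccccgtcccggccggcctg
S1PR3: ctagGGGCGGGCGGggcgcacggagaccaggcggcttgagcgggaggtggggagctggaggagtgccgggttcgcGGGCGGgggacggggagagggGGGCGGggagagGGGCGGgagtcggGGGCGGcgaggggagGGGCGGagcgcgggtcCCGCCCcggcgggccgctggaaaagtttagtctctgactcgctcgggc
RDX: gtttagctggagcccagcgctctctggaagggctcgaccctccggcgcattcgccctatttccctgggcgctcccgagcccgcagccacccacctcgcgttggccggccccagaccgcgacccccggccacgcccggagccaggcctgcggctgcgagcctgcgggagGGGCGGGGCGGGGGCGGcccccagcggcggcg
FLNC: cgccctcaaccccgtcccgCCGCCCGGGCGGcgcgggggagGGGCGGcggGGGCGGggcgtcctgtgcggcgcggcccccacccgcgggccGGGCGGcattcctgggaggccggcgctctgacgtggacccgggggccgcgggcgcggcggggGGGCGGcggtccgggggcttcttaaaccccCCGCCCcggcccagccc
All 4 were between 74% and 86% G and C. The number of GC boxes was 0 at IPO13, 8 at S1PR3, 3 at RDX and 7 at FLNC, so it did not separate the better-ranked from the worse-ranked promoters.

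The last sequence is from the best-ranked lost region away from promoters. It lies in an intron of PTPRS (chr19:5309140-5309289, given on the minus strand of the gene), which encodes a receptor tyrosine phosphatase.
PTPRS intron: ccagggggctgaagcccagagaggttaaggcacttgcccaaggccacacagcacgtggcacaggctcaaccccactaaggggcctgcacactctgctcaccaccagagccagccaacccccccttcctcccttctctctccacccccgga
This stretch held none of the 4 motifs and had 2 CpG dinucleotides.

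The parental libraries held 15753 and 17673 regions and the SAP30-KO1 libraries 15341 and 14113. The means were 16713 ± 1358 for parental and 14727 ± 868 for SAP30-KO1 libraries (SD, n = 2 each). The lines did not overlap, and SAP30-KO1 had 0.881 times as many regions (p = 0.33 in a two-sided exact permutation test, the smallest value that 2 libraries against 2 can give). Summits themselves numbered 20735 and 23000 in parental and 23340 and 22121 in SAP30-KO1 libraries, and the lines overlapped. Of all regions, 11771 were present in all 4 libraries and 5319 in only 1. Ranks of the 11771 shared regions were most alike between the 2 parental libraries, with a Pearson correlation of their normal scores of 0.880 across regions. It was 0.740 between the 2 SAP30-KO1 libraries, which was below the 0.747 to 0.797 between libraries of different lines. The replicates of the knockout line were thus no closer to each other in rank than to parental libraries, which limits every rank comparison below. Nothing in the labels says that the replicates came from separate cultures, so all p-values measure the spread between these libraries.

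**Figure D1:**
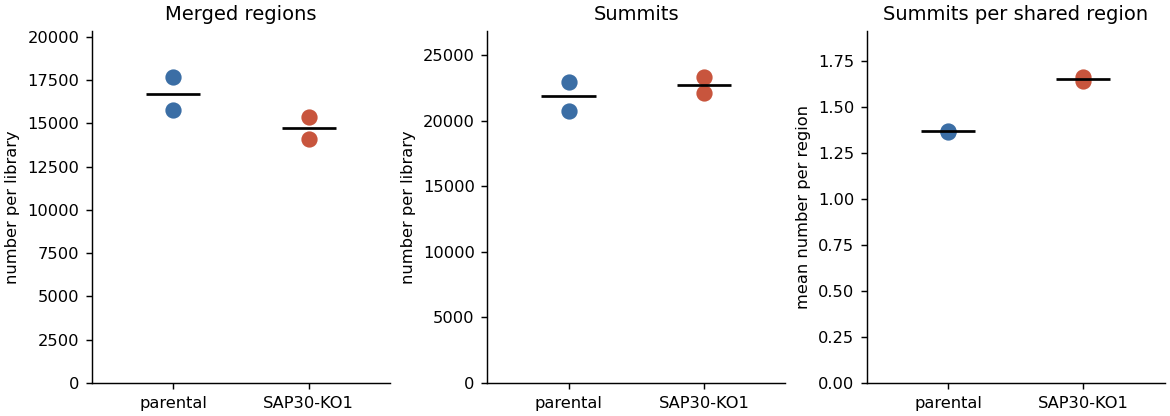
Number of merged Pol II regions, number of summits and mean number of summits per region shared by all 4 lists, by library (points, 2 per line) with the mean (line), all axes from 0. Regions were fewer and summits per shared region more numerous in both SAP30-KO1 libraries, while total summits overlapped.

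Markers of cell identity were read beside all genes, without a test. Of 20098 protein-coding genes, 10793 had a promoter region shared by all 4 libraries and 7898 had no promoter summit in any library. Of 20 mesenchymal marker genes, 15 had a promoter region shared by all 4 libraries, led by VIM, which encodes the intermediate filament vimentin, at ranks of 0.463% and 0.599% in parental and 0.140% and 0.2% in SAP30-KO1 libraries. Of 18 luminal and epithelial markers 8 had such a region and 9 had no promoter summit in any library. None of the 10 blood cell markers had a promoter summit in any library.

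Which Pol II regions appeared in only 1 of the lines was examined first. A region was lost when both parental lists and neither SAP30-KO1 list held it, and gained in the opposite case. There were 1267 lost regions, 8.61% of the 14707 in both parental lists, and 108 gained regions, 0.889% of the 12155 in both SAP30-KO1 lists. In the 4 arrangements of the test that mix the lines, with a library of each line on either side, between 73 and 474 regions were present in both libraries of one side and absent from the other. The excess of lost over gained regions was the largest of all arrangements (two-sided exact permutation p = 0.33, n = 2 each). Leaving out 1 library at a time gave 1780 to 3307 lost and 179 to 1512 gained regions, with more lost than gained each time.

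The loss was uneven along genes. Promoters, here the 1000 bp on either side of a start site, lost 408 of 11535 regions (3.54%). The first 3 kb of genes beyond the promoter lost 140 of 440 (31.8%), the rest of gene bodies 333 of 1153 (28.9%), the 3 kb on either side of gene ends 122 of 507 (24.1%) and intergenic sequence 264 of 1072 (24.6%). In each place the lost share exceeded that of every arrangement that mixes the lines, which ranged up to 1.13% at promoters, 13.4% in early genes, 17.3% in gene bodies, 11.1% at gene ends and 12% in intergenic sequence. Gained regions made up 0.324% of the regions in both SAP30-KO1 lists at promoters, 9.17% in early genes, 4.32% in gene bodies, 3.70% at gene ends and 3.15% in intergenic sequence. The p-value was 0.33 in each place (exact permutation test, two-sided, n = 2 each).

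**Figure D2:**
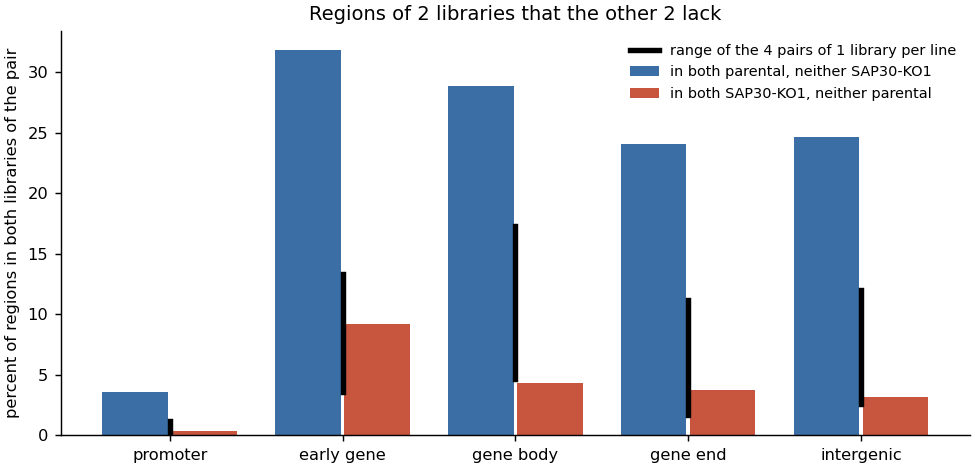
Percent of the Pol II regions held by both libraries of a pair that the other 2 libraries lack, by place in the gene. Blue bars are regions lost from SAP30-KO1, red bars are gained regions and black lines span the 4 pairs made of 1 library of each line. Lost shares were highest away from promoters, from 24.1% to 31.8%, and 3.54% at promoters.

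Lost regions were weak ones. The median of their mean parental rank was 82.9% and the best was 28.4%. At promoters, none of 3080 regions at ranks under 20% was lost, 1 of 3339 at ranks of 20% to 40%, 18 of 2886 at 40% to 60%, 188 of 1714 (11%) at 60% to 80%, and 201 of 516 (39.0%) beyond 80%. Away from promoters 261 of 1295 regions (20.2%) were lost at ranks of 60% to 80% and 585 of 1178 (49.7%) beyond 80%, so the loss was more frequent than at promoters of like rank. List length bore on these counts. With lists cut to equal length by rank, 600 regions were lost and 240 gained, and among regions of mean rank 50% or better in the lists that held them only 4 were lost and 16 gained, so the excess of loss was not found among strong regions. The lists were cut there to an equal number of regions. For protein-coding genes, given below, they were cut to an equal number of summits, which gave 320 lost and 28 gained. SAP30-KO1 lists held more summits per region, so these cuts differ and their counts cannot be set side by side. Most lost regions stood alone: 1100 of 1267 (86.8%) had no SAP30-KO1 summit within 2000 bp, and the median distance to the nearest was 16713 bp. This was not particular to them. In the 4 arrangements that mix the lines, 75.3% to 89.5% of such regions stood alone, with medians of 10102 to 17342 bp. Of the 108 gained regions 64 had no parental summit within 2000 bp, and their median distance was 4032 bp.

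By gene, 270 protein-coding genes lost their promoter summits, 2.33% of the 11595 with a promoter summit in both parental libraries, and 27 gained them, 0.249% of the 10825 with a promoter summit in both SAP30-KO1 libraries. Arrangements that mix the lines gave 7 to 86 genes. The best-ranked lost promoter was that of GFPT2 (region at 179780290 to 179780291 of chromosome 5, just inside the gene), at 35.1% and 21.6% of the parental lists. The nearest SAP30-KO1 summits were 61073 and 61007 bp away. SUSD5 followed at ranks of 61.3% and 38.3%. The promoter of ALKBH2, which encodes a repair enzyme for alkylated DNA, stood at 58.6% and 44.5%. That of WWOX, an oxidoreductase gene that spans a common fragile site, stood at 52.9% and 52.8%, with no SAP30-KO1 summit closer than 908159 bp. CACNA2D4, an auxiliary subunit gene of calcium channels, stood at 58.5% and 49.3%, and TRIM16, of the tripartite motif family, at 55.2% and 52.8%. ARRB1, which encodes the receptor adaptor beta-arrestin 1, stood at 56.0% and 54.4%, and CD40, a co-stimulatory receptor of the TNF receptor family, at 52.1% and 59.4%. The forkhead factor genes FOXO6 and FOXN3 stood at 49.2% and 64.6% and at 65.7% and 49.5%. Apart from GFPT2 and 1 rank of SUSD5, these promoters stood between 44.5% and 65.7% of the parental lists.

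The other readouts of the series still marked most of these 10 promoters. Each had summits of SAP30, H3K4me3 and H3K9Ac in both parental libraries. In SAP30-KO1 cells H3K4me3, a mark of active promoters, was present in both libraries at 9 of the 10 and in neither at CACNA2D4, and H3K9Ac, an acetylation mark of active chromatin, was in both libraries at all but CACNA2D4 and CD40, which had it in 1. Over all 408 lost promoter regions H3K4me3 was present in both parental libraries at 335 (82.1%) and in both SAP30-KO1 libraries at 312 (76.5%), and H3K9Ac at 356 (87.3%) and 338 (82.8%). The promoters that kept Pol II in all 4 libraries had H3K4me3 at 98.5% in each line and H3K9Ac at 98.8% and 98.9%. SAP30 was in both libraries at 86.0% of lost and 98.5% of shared promoter regions, SIN3B at 30.6% and 88.7%, and SIN3A at 7.60% and 52.3%.

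The same readouts were compared among weak promoters. Among the parental promoter regions with mean ranks beyond 60%, 115 of 1232 with SIN3B in both libraries were lost (9.33%), and 169 of 531 without SIN3B (31.8%), with median parental ranks of 68.6% and 76.5%. For SIN3A the shares were 29 of 390 (7.44%) and 310 of 1433 (21.6%), at median ranks of 66.3% and 73.1%. For SAP30 they were 333 of 2060 (16.2%) and 31 of 89 (34.8%), at 70.5% and 81.4%. The lost share was lower among promoter regions with each protein than among those without it, and the regions without it also had worse median ranks. The part of rank in this was not tested.

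Sequence around the summits differed as well. In the 300 bases around the summit, lost promoter regions had a median of 67.7% G and C and 25 CpG dinucleotides, compared with 69.3% and 30 at shared ones. GC boxes were found at 62.0% of lost and 76.0% of shared promoter regions, CCAAT at 23.5% and 28.2%, TATAAA at 4.66% and 3.30%, and the AP-1 letters at 10.0% and 3.65%. Away from promoters the AP-1 letters were found at 26.0% of lost and 19.4% of shared regions, and GC boxes at 24.6% and 44.1%. Gained promoter regions, of which there were 34, had a median of 58.2% G and C, GC boxes at 38.2% and TATAAA at 14.7%. These shares describe the regions and regions are not replicates. Lost regions were also weak ones, at promoters with a median parental rank of 79.9%, and the shares were not compared at like rank. The part of rank in them was not tested.

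Away from promoters well-ranked lost regions lay in an intron, in noncoding genes and near a gene end. The PTPRS region (chromosome 19, 5309157 to 5309215) stood at 42.8% and 26.4% of the parental lists and had no summit of SAP30, SIN3A, SIN3B, H3K4me3 or H3K9Ac in any library. Other lost regions were in the noncoding gene LINC00595 at chromosome 10, 80062900, near the end of ZBTB45 at chromosome 19, 59025575, and in CCR5AS at chromosome 3, 46447415, near the chemokine-like receptor gene CCRL2. They stood at 52.1% and 52.5%, 57.2% and 49.0%, and 51.6% and 60.01%, and each had H3K4me3 in both parental libraries.

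The best-ranked gained regions were of another kind, since nearly all sat within 2000 bp of a summit that the parental lists also had. H2BC3, a histone H2B gene, had the best-ranked gained promoter region, at 5.44% and 2.24% of the SAP30-KO1 lists, and parental summits lay 1538 and 1491 bp away. TBCC, which encodes a tubulin folding cofactor, stood at 8.32% and 7.14% with parental summits 1179 and 1226 bp away. ETFB, a subunit gene of the electron transfer flavoprotein, and TOB1, an antiproliferative gene, stood at 16.9% and 17.6% in 1 library and both at 29.5% in the other. TUBB3, MEIS2, SREBF1, KLF12 and the shared promoter of IER2 and STX10 had parental summits between 1211 and 2610 bp away. CA8, a carbonic anhydrase-related gene, was the exception among the 10, at 71.9% and 49.0%, with its nearest parental summit 235367 bp away. Away from promoters, the gained regions lay beside the U5 pseudogene RNU5E-4P at 0.515% and 0.542%, the matricellular gene CCN1 at 5.44% and 8.06%, the AP-1 gene JUND at 13.6% and 12.2%, the let-7 host gene MIRLET7BHG at 16.2% and 17.4%, and MIR21 in VMP1 at 32.0% and 5.07%. Parental summits lay between 1042 and 1675 bp from each of these 5. At CCN1 and JUND the promoter held Pol II summits in all 4 lists, so the gained region there was an additional one.

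Shared regions also held more summits in SAP30-KO1. Shared regions held a mean of 1.37 and 1.37 summits in the parental libraries and 1.64 and 1.66 in the SAP30-KO1 libraries, 1.37 ± 0.00 and 1.65 ± 0.02 (SD, n = 2 each), without overlap between the lines (exact permutation test, two-sided, p = 0.33). Regions with 2 or more summits made up 27.6% and 26.8% in parental and 42.6% and 43.6% in SAP30-KO1 libraries. In 1557 regions (13.2%) both SAP30-KO1 libraries held more summits than either parental library, and in 313 (2.66%) fewer. In the arrangements that mix the lines, between 256 and 343 regions separated.

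Promoters carried most of this difference. Their shared regions held 1.36 and 1.35 summits in parental and 1.64 and 1.68 in SAP30-KO1 libraries. Gene bodies held 1.52 and 1.56 against 1.67 and 1.53, which overlapped, and intergenic regions held 1.42 and 1.46 against 1.55 and 1.54. The difference was present in each quartile of promoter ranks. It went from 1.45 and 1.43 to 1.73 and 1.79 in the best-ranked quartile, and from 1.32 and 1.33 to 1.52 and 1.48 in the worst-ranked. At the 5266 promoter regions with SAP30, SIN3A and SIN3B in both libraries it went from 1.40 and 1.39 to 1.73 and 1.76, and at the 298 with SAP30 but without SIN3A and SIN3B from 1.18 and 1.21 to 1.27 and 1.26. Apart from gene bodies, each of these groups separated the lines (two-sided exact permutation p = 0.33).

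More summits were listed beside the start site in SAP30-KO1, and not on it. Neighbouring summits of a list were rarely under 190 bp apart, as given below. A second summit within 100 bp of the same start therefore had little room in any list. The part of this spacing in the positions was not tested. Within 100 bp of a protein-coding start site the libraries held 8306 and 8469 parental and 8483 and 8293 SAP30-KO1 summits. From beyond 100 to 600 bp upstream they held 2239 and 2106 against 3267 and 3503, a ratio of 1.56. From beyond 100 to 600 bp downstream they held 1657 and 1591 against 2519 and 2617, a ratio of 1.58. Beyond 600 bp the lines overlapped again, on both sides. At the 10706 genes with a promoter summit in all 4 libraries the best summit had a median position of 20 bp downstream of the start in both parental libraries, and of 22 and 19 bp in SAP30-KO1 libraries. The best summit lay over 100 bp from the start at 32.1% and 31.2% of these genes in parental and at 36.1% and 37.3% in SAP30-KO1 libraries, whereas the nearest summit did so at 28.1% and 27.9% against 26.6% and 26.4%. A summit at the start was thus listed at slightly more genes in SAP30-KO1 but was the best one at fewer.

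**Figure D3:**
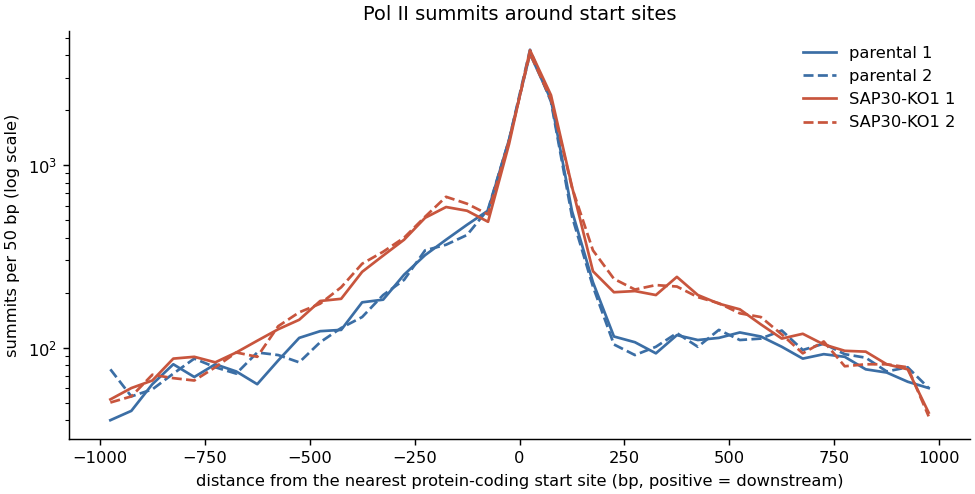
Pol II summits per 50 bp (log scale) against the distance from the nearest protein-coding start site, by library. Counts summed over the 100 bp on either side of the start overlapped between the lines. Within that stretch both SAP30-KO1 libraries (red) lay slightly below both parental libraries (blue) upstream, and slightly above them from 50 to 100 bp downstream. From about 100 to 600 bp on either side both SAP30-KO1 libraries lay above both parental libraries.

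The spacing at which the lists separate neighbouring summits also differed. Neighbouring summits of the same list were under 300 bp apart 87 and 112 times in parental and 1120 and 1740 times in SAP30-KO1 lists. The first percentile of the gap between neighbours was 343 and 344 bp in parental and 217 and 190 bp in SAP30-KO1 lists. The H3K4me3 lists overlapped, at 323 and 370 bp in parental against 415 and 306 bp in SAP30-KO1 libraries. The H3K9Ac lists differed in the other direction, at 399 and 380 bp against 405 and 435 bp. With the summits of each list that lay within 350 bp of a better one removed, an alternative chosen after seeing the data, shared regions held 1.35 and 1.35 summits in parental and 1.51 and 1.47 in SAP30-KO1 libraries, still without overlap. Options of the peak caller for each list are not given in the sources used here, and their part in this was not tested.

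Single loci showed how far this went. The noncoding gene NEAT1, the scaffold RNA of paraspeckles, held the largest difference, from 11 and 7 summits in parental to 15 and 24 in SAP30-KO1 libraries. IRS1, which encodes an insulin receptor substrate, went from 4 and 5 to 14 and 13 summits. CFLAR, which encodes an inhibitor of death receptor signalling, went from 1 and 3 to 10 and 6. NRP1, a co-receptor gene for vascular endothelial growth factor, and JADE2 went from 1 summit in each parental library to 5 and 8, and to 6 and 7. The rank of the best summit in these 5 regions was not past the threshold in the rank test described next. In the opposite direction DNMBP went from 6 and 8 to 3 and 3, a region 13850 bp from the start of the receptor gene NOTCH1 from 8 and 3 to 2 and 1, and the chaperone gene CANX from 3 and 6 to 1 and 1. Regions in SLC20A1 and near POFUT2 both went from 4 and 6 to 2 and 1.

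Rank was compared at the 11771 shared regions after converting ranks to normal scores, where a positive difference is a better rank in SAP30-KO1. No region passed an adjusted p of 0.05 in limma's moderated test (0.0% of regions, smallest adjusted p = 0.156), and 1038 had an unadjusted p under 0.05. Ranks of the lines did not overlap at 2393 regions that stood better (20.3%) and 2391 that stood worse (20.3%) in SAP30-KO1. The count of regions past the threshold depended on the knockout libraries. It was 36 better and 80 worse without SAP30-KO1 replicate 1, 3 and 12 without SAP30-KO1 replicate 2, and 0 without either parental replicate, and 1 region passed in the same direction in both fits that left out a knockout library. In these fits the lone knockout library was taken to vary like the parental ones. With a prior variance that followed the mean rank, 8 regions stood better and 2 worse.

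The direction of the rank differences varied by place. The median difference in normal score was −0.02 at the 10348 shared promoter regions, 0.24 at 167 early gene regions, 0.18 at 510 gene body regions, 0.14 at 237 gene end regions and 0.14 at 509 intergenic regions. Better ranks without overlap made up 19.1% of promoter, 29.9% of early gene, 31.8% of gene body, 28.3% of gene end and 27.9% of intergenic regions, and worse ranks 21.2%, 14.97%, 14.3%, 13.9% and 13.8%. These ranks cover only regions in all 4 lists, and weak regions dropped out of the SAP30-KO1 lists more often away from promoters, so the better standing of the kept ones cannot be told apart from this selection. The share of regions at promoters was 74.7% and 68.7% in parental and 74.1% and 77.0% in SAP30-KO1 lists, which overlapped. With lists of equal length it was 80.4% and 80.6% in parental and 78.0% and 77.0% in SAP30-KO1 libraries, so its direction depended on list length.

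The promoters with the largest rank differences are given although none passed the threshold, and they were chosen after their values were seen. GDAP1, which encodes a protein of the mitochondrial outer membrane, stood at 99.0% and 98.5% in parental and 68.1% and 56.8% in SAP30-KO1 libraries. S1PR3 stood at 95.4% and 95.4% against 45.3% and 36.4%, a difference of 1.92 ± 0.34 (SE) in normal score. PLIN3, a lipid droplet gene, stood at 78.1% and 74.6% against 15.7% and 17.2%. UBE2L3, a ubiquitin-conjugating enzyme gene, stood at 83.9% and 73.5% against 23.7% and 19.5%. The zinc finger genes ZNF790 and ZNF345, which share a promoter, ZNF780B, and the genes TTC30B, SHISA4, SIPA1L3 and GM2A completed the 10, with differences between 1.63 and 1.87.

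The opposite direction was led by CDC23, which encodes a subunit of the anaphase-promoting complex, at 40.8% and 67.3% in parental and 99.9% and 96.4% in SAP30-KO1 libraries. FLNC stood at 53.1% and 55.8% against 96.1% and 99.1%, a difference of −1.95 ± 0.37. TBC1D25, a Rab regulator gene, stood at 74.1% and 73.9% against 99.9% and 99.1%. BUD13, a splicing factor gene, stood at 14.6% and 15.4% against 69.4% and 89.7%, and CDON, a Hedgehog co-receptor gene, at 46.8% and 34.4% against 94.2% and 94.7%. CLU, NINL, TLK2 and PSKH1 had differences between −1.98 and −1.80. Their adjusted p-values lay between 0.383 and 0.485 for the genes named in both directions (limma, Benjamini-Hochberg). Without SAP30-KO1 replicate 1, GDAP1, S1PR3 and FLNC passed the threshold, with differences of 2.08, 2.03 and −2.26, and without SAP30-KO1 replicate 2 TBC1D25 and CDC23 passed, with −2.38 and −2.92.

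**Figure D4:**
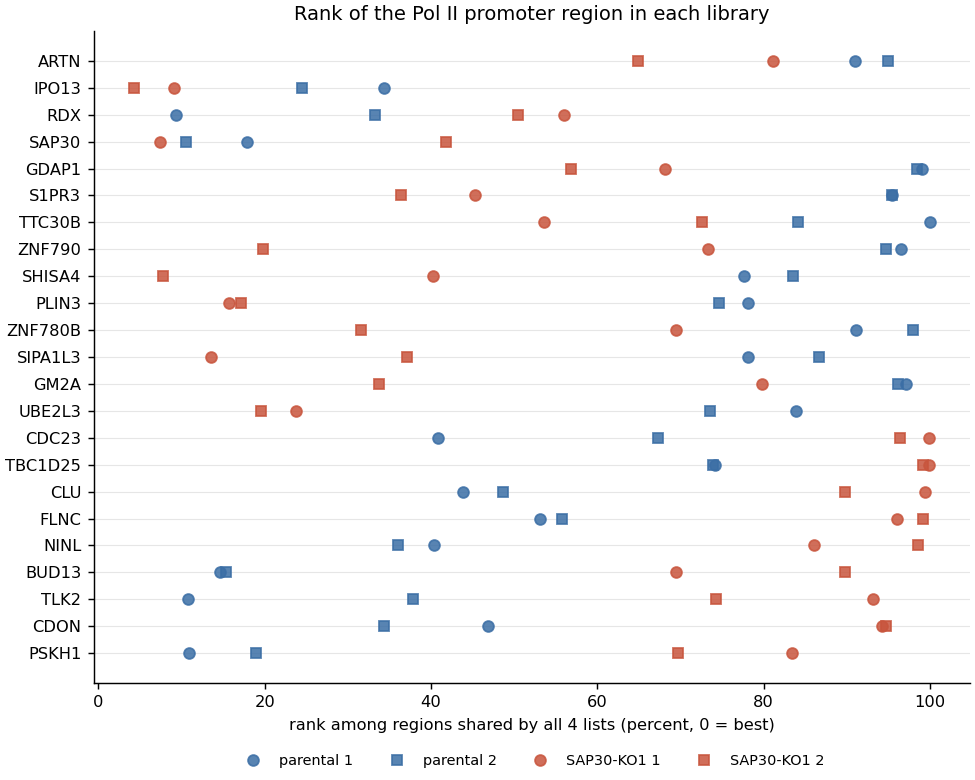
Rank of the Pol II promoter region among the regions shared by all 4 lists (0 = best) in each library, for SAP30 and the genes followed by the study that had such a region, and for promoters with the largest differences in each direction. Parental libraries are blue and SAP30-KO1 libraries red. The lines overlap at SAP30 and not at the other genes, which were chosen on that basis except for ARTN, IPO13 and RDX.

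Position on the chromosomes moved with these ranks. On the long arm of chromosome 11 the median difference over 404 shared regions was −0.40, and 48.0% stood worse and 5.45% better without overlap, against 20.3% each over all regions. BUD13, CDON and RDX are on that arm, and so are the lost promoters of PDGFD and ARRB1 and the SIN3 subunit gene BRMS1. The long arm of chromosome 16, with PSKH1 and the lost promoter of WWOX, had a median of −0.26 over 234 regions. The long arm of chromosome X had a median of 0.29 over 208, with 36.5% better and 6.25% worse. Whether the copy number of these arms differs between the lines was not tested. Among regions away from promoters, also chosen after their values were seen, the largest difference was at chromosome 19, 27732042 to 27732054, beside the centromere and 1972004 bp from the nearest protein-coding start site, from 99.7% and 99.97% in parental to 57.0% and 43.5% in SAP30-KO1 libraries. The region in DCPS and GSEC on chromosome 11, 126212549, went from 71.6% and 90.9% to 10.7% and 4.0%, against the direction of its arm. The other differences toward better ranks were beside the centromere of chromosome 10, at 42385226, near INHBB, an activin subunit gene, and near PTGES, which encodes a prostaglandin E synthase. Both regions beside centromeres held no summit of SAP30, SIN3A, H3K4me3 or H3K9Ac in any library. Regions were not filtered for repeated sequence here, and its part in these differences was not tested. Toward worse ranks, the difference was −1.84 at RNU1-85P in TEX14, −1.65 near VCL, which encodes the adhesion protein vinculin, −1.45 near SMARCC1, a chromatin remodeller subunit gene, −1.35 in RPS6KA5, a kinase gene, and −1.33 in NGEF, an exchange factor gene.

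Genes of small nuclear RNAs, most of them components of the spliceosome that Pol II transcribes at very high rates, took many of the best ranks. They were singled out after their values were seen. RNU2-2P, a U2 gene on the long arm of chromosome 11, was the first region of both parental lists, at 0.00425%. It stood at 0.0467% and 0.0127% in SAP30-KO1 libraries. RNU4-1 stood at 0.0722% and 0.0127% against 0.0212% and 0.0977%, with overlap. The U1 gene RNU1-1 stood at 0.268% and 0.412% against 0.0297% and 0.0297%, and the U1 variant RNVU1-15 at 0.633% and 1.03% against 0.123% and 0.0722%. The U2 gene copy RNU2-59P stood at 1.58% and 3.25% against 0.225% and 0.234%. RNU1-60P went the other way, from 0.433% and 0.276% to 3.50% and 4.79%, and so did its neighbour on chromosome 17, RNU1-85P, from 12.7% and 23.9% to 76.4% and 86.6%. Further small nuclear RNA genes stood worse without overlap, among them RNVU1-6, RNU5E-1, RNU4ATAC, RNU5A-8P, RNU1-122P and RNU7-1. Others stood better, among them RNU5F-1, RNU1-2 and RNVU1-20, so the genes moved in both directions. These genes have near-identical copies, between which reads cannot always be placed. RNU2-2P, RNU1-1, RNVU1-15, RNU2-59P and RNU1-60P were among the 10 regions that passed with the mean-rank trend and not in the fit reported above. So were the regions at the small nucleolar RNA genes SNORD3A, SNORD3B-1 and SNORD3B-2. The rest were at the promoter of FAM72D, in DCPS and GSEC, and beside the centromere of chromosome 19.

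The genes that the study followed were read out at the same promoters. RDX stood at 9.37% and 33.3% in parental and 56.0% and 50.5% in SAP30-KO1 libraries, a difference of −0.96 ± 0.40 in normal score (SE, adjusted p = 0.532). IPO13 stood at 34.3% and 24.5% against 9.12% and 4.27%, a difference of 0.98 ± 0.36 (adjusted p = 0.492). ARTN, which encodes the neurotrophic factor artemin, stood at 90.9% and 94.9% against 81.1% and 64.9%, a difference of 0.85 ± 0.36 (adjusted p = 0.541). SAP30 itself stood at 17.9% and 10.5% against 7.35% and 41.8%, with overlap, and went from 2 and 1 summits to 4 and 4. The study chose these genes with related data of the same lines in view, so their direction is not independent evidence. PDGFD was lost, from 84.3% and 64.8% of the parental lists, and kept SAP30, H3K4me3 and H3K9Ac summits in both libraries of each line in which they were measured. RDX and PDGFD both lie on the long arm of chromosome 11, where shared regions stood worse more often than elsewhere. ADM2 and PDGFB, which encode the peptide hormone intermedin and a platelet-derived growth factor, had a promoter summit in parental replicate 2 only, and CLDN1, NOTCH3 and HSPA6 had none.

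Gene groups were described by how many members stood better or worse in both SAP30-KO1 libraries than in both parental ones, set beside all 10793 protein-coding genes with a shared promoter region, of which 1963 (18.2%) stood better and 2363 (21.9%) worse, with a median difference of −0.03. No member of any list passed an adjusted p of 0.05 (limma), and members with an unadjusted p under 0.05 are counted for some lists. Apart from lost, gained and best-ranked members, the members named were chosen after their values were seen, mostly for the size of their difference. Interferon-stimulated genes, the antiviral response set, stood better in 10 of 17 members and worse in 0, with a median of 0.43 and 4 members at an unadjusted p under 0.05. IFI44 went from 93.2% and 98.2% to 54.2% and 70.6%, ISG15, a ubiquitin-like modifier, from 35.2% and 35.6% to 7.71% and 9.87%, and OAS2, an antiviral RNA sensor, from 86.3% and 97.9% to 83.4% and 45.5%. In the same list OAS1 was gained, at 73.4% and 87.4%, and BST2 was lost, from 86.6% and 96.5%. The median of the list differed by 0.45 between the 2 SAP30-KO1 libraries and by 0.25 between the 2 parental ones, so its size was no larger than the spread between the SAP30-KO1 replicates. Without 1 library at a time it was 0.48 to 0.70.

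AP-1 and immediate early genes stood better in 8 of 23 members and worse in 2, with a median of 0.10, which was 0.04 without parental replicate 2 and 0.16 without SAP30-KO1 replicate 2. JUN went from 1.41% and 2.09% to 0.799% and 0.293%, FOS from 3.16% and 5.83% to 2.37% and 1.42% and EGR1 from 5.25% and 14.7% to 2.37% and 2.29%. FOSL1, on the long arm of chromosome 11, went from 2.48% and 3.01% to 20.2% and 24.7%. Hexosamine pathway genes other than the lost GFPT2 stood better in 3 of 7 and worse in 0, led by PGM3 and GNPNAT1, with a median of 0.22. The mesenchymal list stood better in 5 of 15 and worse in 3, and lost TGFBI, an extracellular matrix gene.

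Other groups stood worse more often. Of 10 genes of Pol II subunits with a shared region, 7 stood worse and 1 better, with a median of −0.37. POLR2D went from 6.63% and 6.35% to 43.7% and 17.0%, while POLR2A, the gene of the catalytic subunit, stayed among the best ranks at 0.123% and 0.140% against 0.217% and 0.327%. Without the long arms of chromosomes 11 and 16, 5 of 8 stood worse. Genes of cytosolic ribosomal proteins stood worse in 31 of 84 members and better in 5, with a median of −0.23 and 7 members at an unadjusted p under 0.05. RPS3, on the long arm of chromosome 11, went from 5.25% and 5.04% to 43.7% and 51.4%, and RPL19 from 5.12% and 5.25% to 25.3% and 50.2%, while RPL12 had the best ranks, at 0.794% and 1.01% against 1.07% and 1.05%. Without the 2 arms 27 of 80 stood worse and 5 better. E2F and DNA replication genes stood worse in 12 of 25 and better in 3, with a median of −0.22. The licensing gene CDC6 went from 16.9% and 20.8% to 83.4% and 55.6% and RFC5, a clamp loader subunit gene, from 26.7% and 36.3% to 56.0% and 99.1%, while CDC45, a replicative helicase component, went from 78.1% and 79.8% to 42.4% and 44.6%. The ribosomal protein and E2F lists differed by −0.09 and 0.11 between the 2 SAP30-KO1 libraries.

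SIN3 complex subunits stood worse in 6 of 20 and better in 2, with a median of −0.20. SIN3B went from 5.39% and 6.39% to 13.2% and 39.9% and BRMS1 from 39.1% and 41.1% to 69.4% and 76.4%. The median of this list was 0.01 without SAP30-KO1 replicate 2, so its sign rested on that library. Angiogenic ligands and receptors stood worse in 5 of 18 and better in 1, with a median of 0.03. Of the 22 with a promoter summit in both parental libraries 4 were lost (18.2%, beside 2.33% over all genes), which were PDGFD, the receptor genes KDR and PDGFRB, and the chemokine gene CXCL8. All 4 stood beyond 60% in both parental lists, where most lost promoters lay. EFNB2 and JAG1, membrane-bound ligands, stood at 8.22% and 3.95% against 12.1% and 24.7%, and at 2.15% and 2.81% against 5.34% and 9.87%. Replication-dependent histone genes stood better in 9 of 35 and worse in 15, and gained H2BC3 and H3C13, the latter with a region in all 4 lists whose parental summits lay outside the promoter window.

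In the remaining lists the counts in both directions lay closer together. Genes of oxidative phosphorylation stood worse in 19 of 76 and better in 12, cytoskeleton and motility genes 7 and 7 of 33, hypoxia and glycolysis genes 5 and 3 of 23, heat shock genes 3 and 3 of 16, mitotic genes 2 and 4 of 23, pausing and elongation factors 3 and 3 of 23, MLL1 and COMPASS subunits 1 and 2 of 14 and luminal and epithelial genes 1 and 2 of 8. Within these lists CTTN, the gene of the actin regulator cortactin on the long arm of chromosome 11, went from 24.5% and 32.2% to 68.2% and 66.8%. COX7C, a cytochrome oxidase subunit gene, went from 58.1% and 65.1% to 99.3% and 89.7%. UQCRC2, of respiratory complex III, went from 78.1% and 86.4% to 29.8% and 44.1%.

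**Figure D5:**
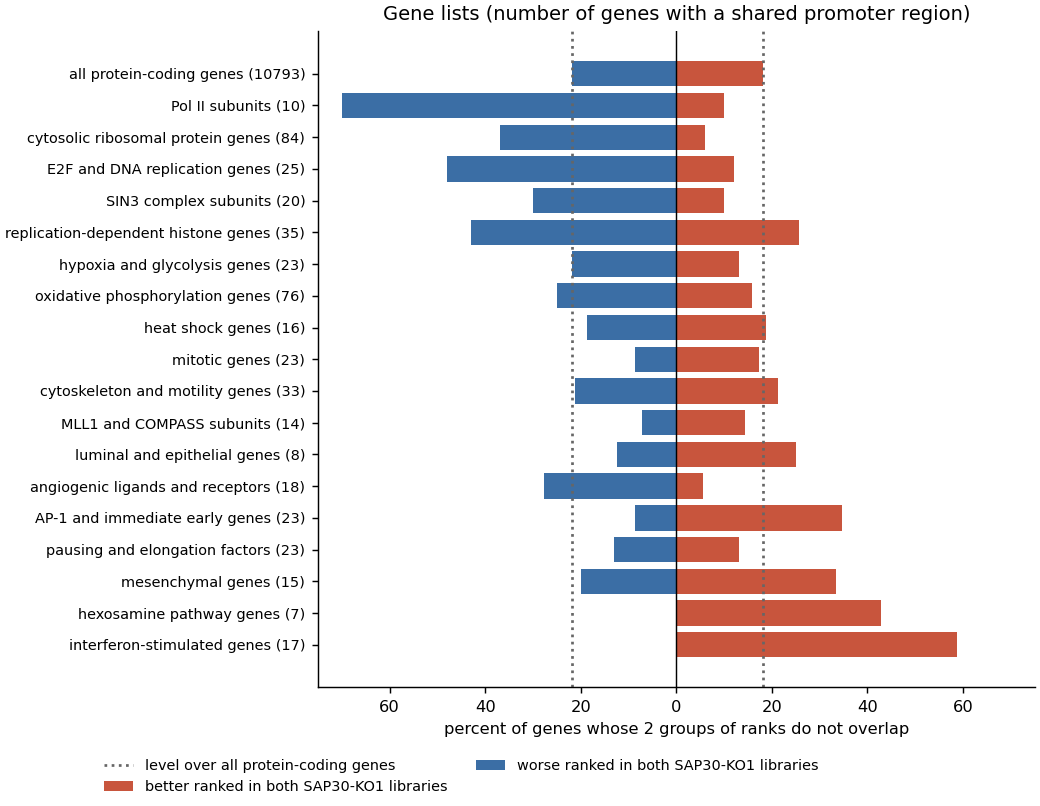
Percent of the genes in each list whose Pol II promoter region stood better (red, to the right) or worse (blue, to the left) in both SAP30-KO1 libraries than in both parental ones, with the number of genes in brackets and dotted lines at the levels over all protein-coding genes, 18.2% and 21.9%. Interferon-stimulated genes reach 10 of 17 to the right and Pol II subunits 7 of 10 to the left.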

How the data were processed

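The members and gene lists were chosen with earlier results of these data known. Each library came as a deposited list of peak summits, not pooled, and the score is the −log10 of a q-value, as the authors deposited it, with a lowest value of 1.31. Per the submitters' processing notes, FastQC 0.11.2, Bowtie2 2.3.3.1, Picard and MACS2 2.1.0 were named with the hg19 build. The labels name an input for Pol II for each line and replicate, but not the input that each list was called against. The caller's options and the depth are not given in the sources used here. The length of a list and its scores depend on depth and enrichment, so a score served only as a rank. A further 12 samples, inputs and total histone H3, were not analysed here.

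Autosomal and chromosome X summits were joined within 1000 bp (7 others were left out). Start sites came from basic protein-coding and lncRNA transcripts of GENCODE release 44 lifted to GRCh37. A region took the first place that applied: promoter (span within 1000 bp of a start site), early gene (up to 4000 bp downstream), gene end (3000 bp either side), gene body, intergenic. Other readouts were counted within 1000 bp of a span. Ranks of regions in all 4 lists were turned into normal scores and tested with limma 3.58.1 (R 4.3.3, Benjamini-Hochberg, threshold 0.05). Values per library were compared by exact permutation tests over the 6 assignments of 2 libraries against 2, whose smallest two-sided p is 0.33. Scripts used Python 3.11.15, pandas 2.3.3 and scipy 1.17.1, and the merging and the limma fit were tested on simulated data. There the fit recovered 2 of 200 regions moved by 1 in normal score, and 171 of 200 moved by 2, with 0 and 7 false calls. Differences near 1 would thus mostly be missed. Every simulated region and library had the same spread. In the data the SD of the difference in normal score was 0.490 between the parental and 0.721 between the SAP30-KO1 libraries. The recovery at 2 can therefore not be carried over to these lists, where CDC23 did not pass with a difference of −2.31. Chromosome arms were split at the longest run of unknown bases. Genes were named by fixed rules: those followed by the study and SAP30, the 10 best-ranked lost and gained promoters, the 5 lost and gained regions elsewhere, regions among the 5 with the largest gain or drop in summits, and up to 4 lost, gained, past-threshold or best-ranked members per list. A promoter and an intronic region that these rules pick are not reported here. No shared region passed, so promoters and list members with large rank differences were named after their values were seen.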

Additional observations from a re-analysis of the deposited data

How the results depend on the processing

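With 2 libraries per line, no value compared by exact permutation could pass 0.05, so only directions and counts can be judged here. The replicate number was no pairing in the labels, and the deviations of same-numbered libraries correlated at 0.01. With the replicate number as a block the rank test still called 0 regions in each direction. It also called 0 with ranks among all summits, percent ranks, the better 50% of regions, or summits merged within 500 or 2000 bp. It called 8 better and 2 worse with a mean-rank trend, and 0 to 36 better and 0 to 80 worse without single libraries. List members past the threshold numbered 0 to 3 without single libraries.

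Lost and gained regions were 600 and 240 with lists cut to an equal number of regions and 4 and 16 in the better-ranked 50%. Gained regions were 499 when merged within 500 bp, 65 within 2000 bp and 64 where parental summits had to be over 2000 bp away, an alternative chosen after seeing the data. Without single libraries, lost regions ranged from 1780 to 3307 and gained regions from 179 to 1512, and genes lost from 345 to 732 and gained from 61 to 87. Genes lost and gained were 320 and 28 with lists cut to an equal number of summits. Genes gained were 92 with a 500 bp and 17 with a 3000 bp window, and in the better-ranked 50% of lists 17 genes were lost and 15 gained. The ratio of regions was 0.833 to 0.935 without single libraries and that of summits per region 1.16 to 1.20. The ratio of summits, 1.04, was 0.988 to 1.1 without single libraries and 0.958 once summits within 350 bp of a better one were removed. The difference in promoter share, 3.87 percentage points, was −3.01 with lists of equal length and 0.903 to 6.83 without single libraries. The difference in summit position, 0.50 bp, ranged from −1 to 2 bp. The median of the SIN3 list ranged from −0.22 to 0.013 and the difference at SAP30 from −0.88 to 0.36 without single libraries, both turning without SAP30-KO1 replicate 2. The causes of these changes were not tested.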
